A study of Homo sapiens with 26 samples.

Results

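Mitochondria carry their own ribosome, the mitoribosome, which translates the few proteins encoded by mitochondrial DNA, all of them core subunits of the respiratory chain and ATP synthase. Its RNAs come from mitochondrial DNA, while its proteins are encoded in the nucleus, made in the cytosol and imported. They divide into a large subunit, which forms peptide bonds, and a small subunit, which reads the mRNA. Some belong to families shared with bacterial ribosomes, and others occur only in mitochondria.

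The genes of these proteins were taken as every row of the series' expression table whose symbol is MRPL or MRPS followed by a number and, optionally, the letter A, B or C. This gave 76 genes of 30331 named ones. By the known structure of the mitoribosome, 49 belong to the large subunit and 26 to the small subunit. MRPS30 and MRPS18A sit in the large subunit despite their symbols, and MRPS36 is no subunit but a part of the alpha-ketoglutarate dehydrogenase complex. Of the 75 subunits, 45 were classed with families shared with bacteria and 30 as specific to mitochondria. MRPS18A and MRPS18B were put in the second class and MRPS18C in the first, although they are paralogs.

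RNA was sequenced from tumors of ZR751, a hormone receptor-positive human breast cancer cell line, grown under the skin of female NSG mice, which lack functional T, B and NK cells. Vehicle tumors (treatment label DMSO) came from 5 mice dosed for 3 days. Sensitive tumors came from 3 mice given atirmociclib, which inhibits the kinase CDK4 that drives entry into the cell cycle, for 3 days. The drug was given orally 2 times daily, 7 hours apart, with 60 mg/kg in each dose, and the tumors were taken 3 hours after the final one. Resistant tumors came from 5 mice dosed likewise for 84 to 91 days in another study, of which no vehicle group was analysed here. Whether they differ from the others by resistance, by study or by length of treatment cannot be told apart. All 3 groups carry the same cell line, and every library has the batch label 1. Each mouse has a library A and a library B, of which the labels do not say at which step they were split, so the mouse was the replicate and its value the mean of both.

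Expression was deposited as TPM, a length-corrected share of all transcripts in a library, so levels can be compared between genes, but read depth is unknown. All 8 luminal epithelial markers were above 1 TPM. Of the markers of other cell types, 4 of 4 endothelial, 4 of 5 fibroblast, 2 of 4 immune (PTPRC and CD3E) and 2 of 3 adipocyte genes stayed below 1 TPM in every mouse, and CD3E and ADIPOQ were listed at 0 throughout. In such bulk samples, fewer cells of a type and less RNA per cell cannot be told apart. Each p-value sets a group difference against the spread between these mice, as estimated in the fit over all genes, and covers no other source of variation.

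All 76 genes passed the filter on low values, a mean of at least 1 TPM in at least 3 mice. In vehicle tumors the median of their mean levels was 79.3 TPM, 30 genes exceeded 100 TPM, and the highest mean was 53.3 times the lowest. MRPL51, a large-subunit protein specific to mitochondria, led with 672 ± 24.5 TPM (SD, n = 5). MRPS34, a mitochondria-specific small-subunit protein, followed with 456 ± 35.4 TPM, and MRPL24, of a bacterial family, with 440 ± 16.9 TPM, so the order of these neighbours lies within their spread. MRPL41 had 369 ± 64.0 TPM and MRPL12, the stalk protein that recruits translation factors, 336 ± 31.7 TPM, also within each other's spread. MRPS24 was at 286 ± 33.9 TPM, but the table also holds a read-through of URGCP and MRPS24, so its reads may be split.

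At the other end, MRPL19 had 12.6 ± 1.26 TPM, below MRPL22 with 15.4 ± 0.893 TPM. MRPS25 had 19.4 ± 1.67 TPM, MRPL42 22.8 ± 2.72 TPM, MRPS10 23.2 ± 1.38 TPM and MRPL30 23.5 ± 2.06 TPM (SD, n = 5 each). The last 3 do not differ beyond their spread, and MRPL42 shares sequence with a pseudogene copy that the table lists. The same applies to MRPL45 and MRPS31. The subunits were alike in level: the median of the vehicle means was 79.5 TPM over large-subunit and 83.5 TPM over small-subunit genes. The spread over mice was small, with a median coefficient of variation of 7.92% in vehicle, 5.69% in sensitive and 6.45% in resistant tumors.

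**Figure D1:**
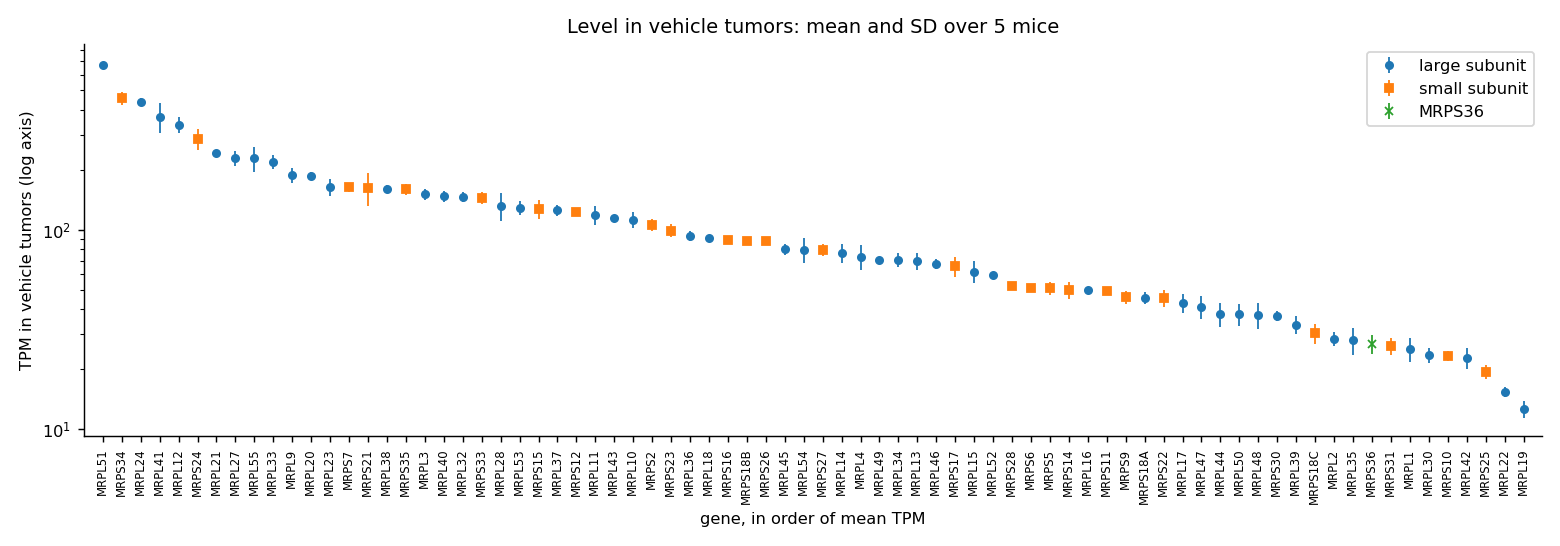
Mean TPM (log axis) of each of the 76 genes in vehicle tumors, ordered by level, with the SD over 5 mice as bars; circles are large-subunit genes, squares small-subunit genes and the cross MRPS36. Levels run from 672 TPM for MRPL51 to 12.6 TPM for MRPL19, with both subunits mixed along the whole range.

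Start regions of 6 genes that recur in the comparisons below are shown first, 4 that hold a match to an ETS or YY1 motif and 2 that hold no match to any of the 5 motifs searched. They come from RefSeq (GRCh38.p14), are written 5′ to 3′ on the gene's own strand, and run from 250 bases before to 50 bases after the annotated start. All 6 genes lie on the minus strand. Capitals mark matches to CCGGAAGT (an ETS-family motif, ACTTCCGG when read on the other strand) or to AAGATGGCG (a YY1 motif). MRPL27 (chr17:50373135-50373434) and MRPL51 (chr12:6493213-6493512) fell at 3 days, MRPS34 (chr16:1773085-1773384) was higher in resistant than in sensitive tumors, and MRPL46 (chr15:88467339-88467638) shares its start region with another member. MRPL39 (chr21:25607432-25607731), with the greatest fall at 3 days, and MRPS23 (chr17:57849995-57850294), higher in resistant tumors, are the genes with no match.
MRPL27: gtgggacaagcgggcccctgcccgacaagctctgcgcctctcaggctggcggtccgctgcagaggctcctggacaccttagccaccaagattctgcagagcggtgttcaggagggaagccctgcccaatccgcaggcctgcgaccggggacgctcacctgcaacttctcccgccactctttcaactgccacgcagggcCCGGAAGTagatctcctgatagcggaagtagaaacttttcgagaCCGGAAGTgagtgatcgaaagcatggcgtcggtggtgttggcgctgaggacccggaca
MRPL51: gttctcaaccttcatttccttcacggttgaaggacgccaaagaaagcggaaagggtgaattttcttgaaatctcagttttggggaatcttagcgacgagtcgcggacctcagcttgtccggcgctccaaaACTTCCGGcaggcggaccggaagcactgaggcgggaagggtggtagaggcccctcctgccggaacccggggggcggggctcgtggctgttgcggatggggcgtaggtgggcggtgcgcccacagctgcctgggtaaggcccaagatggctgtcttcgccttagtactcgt
MRPS34: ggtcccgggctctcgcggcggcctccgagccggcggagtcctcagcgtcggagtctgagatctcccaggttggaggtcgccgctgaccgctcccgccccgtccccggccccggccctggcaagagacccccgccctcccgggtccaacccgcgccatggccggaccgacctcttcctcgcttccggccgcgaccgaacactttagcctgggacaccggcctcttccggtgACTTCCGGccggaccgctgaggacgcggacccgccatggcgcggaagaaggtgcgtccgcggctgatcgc
MRPL46: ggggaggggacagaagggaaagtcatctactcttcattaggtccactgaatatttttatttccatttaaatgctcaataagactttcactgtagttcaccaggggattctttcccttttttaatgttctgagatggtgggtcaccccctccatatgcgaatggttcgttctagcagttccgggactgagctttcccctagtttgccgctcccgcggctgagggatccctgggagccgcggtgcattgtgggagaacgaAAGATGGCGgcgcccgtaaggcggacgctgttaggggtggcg
MRPL39: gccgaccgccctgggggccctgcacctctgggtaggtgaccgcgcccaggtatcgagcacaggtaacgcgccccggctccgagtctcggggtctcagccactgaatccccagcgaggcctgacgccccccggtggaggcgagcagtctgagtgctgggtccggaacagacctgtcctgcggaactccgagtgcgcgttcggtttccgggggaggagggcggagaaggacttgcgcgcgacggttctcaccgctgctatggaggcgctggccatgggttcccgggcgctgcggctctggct
MRPS23: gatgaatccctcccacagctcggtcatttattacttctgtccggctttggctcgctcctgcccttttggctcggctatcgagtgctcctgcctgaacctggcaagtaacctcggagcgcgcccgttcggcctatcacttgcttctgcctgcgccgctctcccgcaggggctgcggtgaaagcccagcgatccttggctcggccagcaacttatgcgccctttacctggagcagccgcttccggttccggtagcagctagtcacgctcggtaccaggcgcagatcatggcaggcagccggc

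Windows of this kind were found for 67 of the 76 genes (83 windows, as some genes have several). Both strands were searched for 5 motifs, none of which contains another. YY1's AAGATGGCG was present in 19.4% of the 67 genes, against 4.63% of the other tested genes and 2.14% of all genes in the promoter table. CCGGAAGT was present in 17.9%, against 9.9% and 4.95%. The core motif of NRF1, GCGCATGC, was found in 8.96%, against 6.35% and 3.68%, and the E-box CACGTG in 13.4%, against 12.8% and 8.77%. TATAAA was found in 4.48%, against 8.18% and 14%. Of the 14 YY1 matches, 13 lay within 100 bases of a start, as did 14 of the 17 ETS matches. Positions were not counted for other genes, so this closeness is not read as particular to the members. Matches were counted per window, so a site in overlapping windows of a gene, as in MRPS22, counts more than once. These are matches of letters, not measured binding.

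The first comparison asks what 3 days of atirmociclib did to these genes. None of the 76 rose and 34 fell (44.7%), where 3.16% of all 14079 tested genes rose and 12.6% fell (limma, Benjamini-Hochberg adjusted p under 0.05 over all genes tested). The median change of the 76 genes was -0.17 on the log2 scale, and 65 of them lay below the median of all tested genes. Summed over the 76 genes, TPM was 8767, 8596, 8579, 8963 and 8744 in the vehicle mice and 7831, 7215 and 7283 in the sensitive mice, so the groups did not overlap. Every log2 change here is on the log2(TPM + 1) scale and is given relative to the median of all tested genes, which lay at -0.07 in this comparison, while calls, standard errors (SE) and p-values are those of the unshifted fit.

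The count depended on scaling and on single mice. After median-of-ratios scaling, which sets the typical gene equal across libraries, 15 of the 76 fell and 1, MRPS25, rose, beside 7.55% and 5.48% of all genes. The 15 were all among the 34, and the median change was -0.16. Without mouse 6-5 the count of lower genes was 13 (17.1%, beside 5.71% of all genes). Without mouse 6-6 it was 17 (22.4%, beside 6.87%). Values of all vehicle mice lay above all sensitive mice for 41 of the 76 genes, where 16.4% of all tested genes showed that pattern. The summed level after scaling was 8227 ± 452 in vehicle (SD, n = 5) and 7468 ± 68.2 in sensitive tumors (SD, n = 3).

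**Figure D2:**
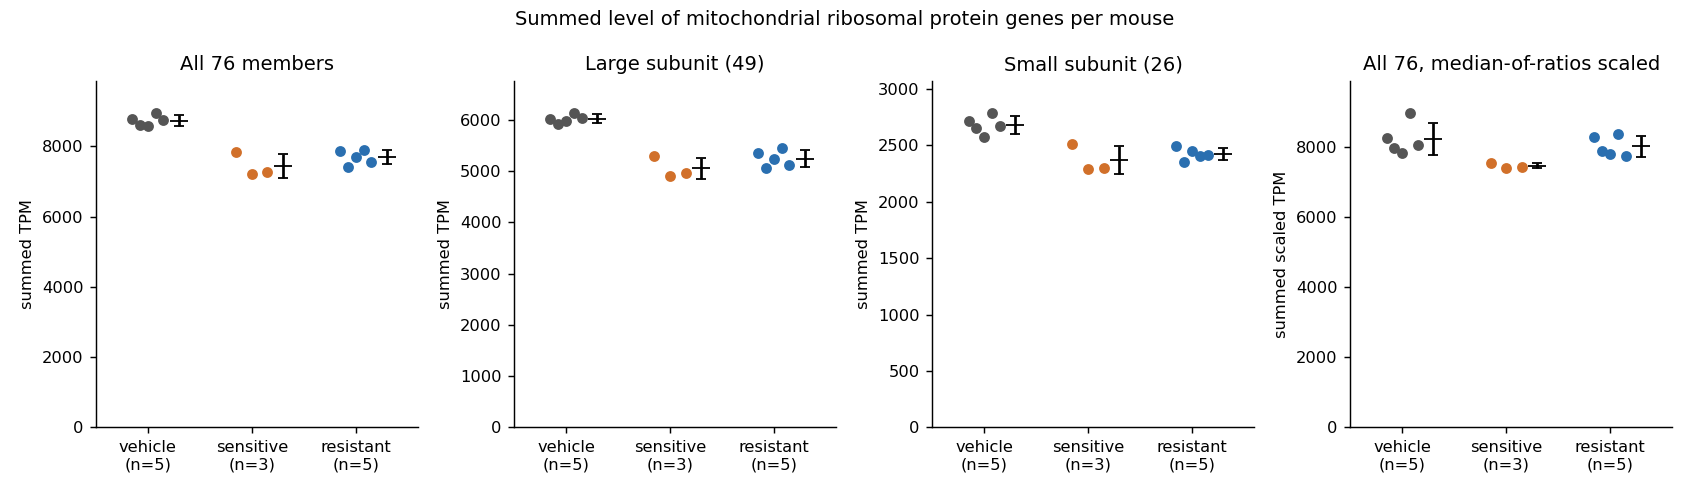
Summed TPM per mouse over all 76 genes, the 49 large-subunit genes and the 26 small-subunit genes as deposited, and over all 76 after median-of-ratios scaling; points are mice, and the bars give mean and SD. As deposited, all 5 vehicle mice (8579 to 8963) lie above the 3 sensitive (7215 to 7831) and the 5 resistant mice (7426 to 7888), while after scaling the vehicle and resistant mice overlap.

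Both subunits took part. In the large subunit 24 of 49 genes fell with a median change of -0.18, and in the small subunit 9 of 26 with a median of -0.13. MRPS36, the remaining gene, also fell, with 26.8 ± 2.95 TPM in vehicle and 20.9 ± 1.32 in sensitive tumors. It missed the threshold after median-of-ratios scaling (limma adjusted p = 0.0905). Among genes of bacterial families 21 of 45 fell (46.7%), and among mitochondria-specific ones 12 of 30 (40.0%). After median-of-ratios scaling these counts were 8 (17.8%) and 7 (23.3%). The differences between these classes were not tested. The large subunit's share of the summed TPM was 69.2% ± 0.492 (SD, n = 5) in vehicle, 68.1% ± 0.252 (SD, n = 3) in sensitive and 68.4% ± 0.570 (SD, n = 5) in resistant tumors.

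MRPL39, a mitochondria-specific large-subunit protein on chromosome 21 (GRCh38, 25585656 to 25607517, minus strand), showed the greatest fall of the 76. Its level was 37.1, 34.2, 27.9, 32.5 and 35.1 TPM in vehicle and 23.9, 19.3 and 19.4 TPM in sensitive tumors. Every sensitive mouse lay below every vehicle mouse, and the change was -0.58 (SE 0.10, limma adjusted p = 0.000802). The resistant tumors, at 25.0, 20.1, 22.8, 22.0 and 22.1 TPM, stayed in the range of the sensitive ones or just above it.

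MRPL27, of a bacterial family whose protein lies close to the peptidyl transferase center, is on chromosome 17 (50367857 to 50373214, minus strand). It had 260, 218, 217, 237 and 212 TPM in vehicle and 159, 150 and 162 TPM in sensitive tumors. The groups stood well apart, with a change of -0.46 (SE 0.07, limma adjusted p = 0.000132). In resistant tumors the level was 196, 179, 183, 190 and 187 TPM, between both other groups with no overlap.

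MRPL51, the most abundant member, lies on chromosome 12 (6491886 to 6493841, minus strand). Vehicle tumors had 689, 638, 655, 684 and 693 TPM and sensitive tumors 518, 485 and 475 TPM. No value of one group reached the other, and the change was -0.37 (SE 0.06, limma adjusted p = 0.000137). Resistant tumors, at 513, 481, 493, 542 and 509 TPM, overlapped the sensitive ones.

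MRPL18, of a bacterial family that sits in the central protuberance of the large subunit, is on chromosome 6 (159789812 to 159798436, plus strand). It was nearly constant among vehicle mice, at 90.3, 89.6, 91.7, 91.0 and 89.8 TPM, and stood at 72.3, 58.6 and 60.0 TPM in sensitive mice. The change was -0.44 (SE 0.10, limma adjusted p = 0.00261), with mouse 6-4 nearest to the vehicle values. Resistant tumors spread over the same range, at 61.6, 55.6, 56.5, 73.8 and 68.7 TPM.

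Among the other large-subunit genes, MRPL13 fell from 69.5 ± 6.78 TPM (SD, n = 5) to 50.2 ± 1.71 (SD, n = 3), a change of -0.38 (SE 0.08, limma adjusted p = 0.00113). MRPL49 fell from 70.9 ± 1.67 to 53.9 ± 2.72 TPM, a change of -0.32 (SE 0.05, adjusted p = 0.000264 in limma). MRPL46, another protein of the central protuberance, fell from 67.4 ± 4.14 to 50.3 ± 3.04 TPM, a change of -0.34 (SE 0.07, adjusted p = 0.00189 in limma). MRPL22, whose bacterial counterpart lines the exit tunnel, had 14.5 to 16.7 TPM in vehicle and 9.54 to 12.3 TPM in sensitive mice and fell by 0.37 on the log2 scale.

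In the small subunit, MRPS6, on chromosome 21 (34073224 to 34143034, plus strand), had 53.8, 48.6, 51.0, 49.3 and 52.3 TPM in vehicle and 40.1, 35.4 and 36.9 TPM in sensitive tumors. The groups did not overlap, and the change was -0.36 (SE 0.08, limma adjusted p = 0.00200). MRPS11 fell from 49.3 ± 1.6 TPM (SD, n = 5) to 37.4 ± 1.76 (SD, n = 3), a change of -0.32 (SE 0.07, adjusted p = 0.00268 in limma). With MRPL13, MRPL18, MRPL22, MRPL27, MRPL39, MRPL46, MRPL49, MRPL51 and MRPS18A, these 2 genes make up the 11 whose call held in each of the 23 alternatives run.

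The abundant genes did not all take part. MRPL12 had 329, 342, 316, 388 and 307 TPM in vehicle and 326, 297 and 317 TPM in sensitive tumors, which overlap, and its change was -0.02 (SE 0.08, limma adjusted p = 0.454). MRPL24 was at 398 ± 15.1 TPM in sensitive tumors (SD, n = 3), a change of -0.07 that did not pass the test. MRPS34, MRPL41 and MRPS24 also did not pass, at 400 ± 15.3, 308 ± 58.5 and 248 ± 16.5 TPM in sensitive tumors. Of the least abundant genes, MRPL19 (11.9 ± 0.678 TPM), MRPL30 (23.1 ± 2.47), MRPL42 (20.0 ± 1.5) and MRPS25 (21.6 ± 0.943) were not called, while MRPS10 and MRPL22 fell.

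The 3 MRPS18 paralogs are proteins of 1 family that occupy different places in the ribosome. MRPS18A, in the large subunit, fell from 45.7 ± 3.14 TPM (SD, n = 5) to 35.3 ± 2.21 (SD, n = 3), a change of -0.29 (SE 0.07, limma adjusted p = 0.00444). MRPS18C had 30.2 ± 3.62 and 24.4 ± 1.73 TPM, a change of -0.22 (SE 0.10) that missed the threshold (limma adjusted p = 0.0632). MRPS18B had 88.2 ± 1.44 and 80.2 ± 5.23 TPM, a change of -0.06 (SE 0.06, limma adjusted p = 0.143). In resistant tumors MRPS18B was lower than in vehicle, at 70.7 ± 3.39 TPM (SD, n = 5), a change of -0.18 (SE 0.05, limma adjusted p = 0.000413).

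**Figure D3:**
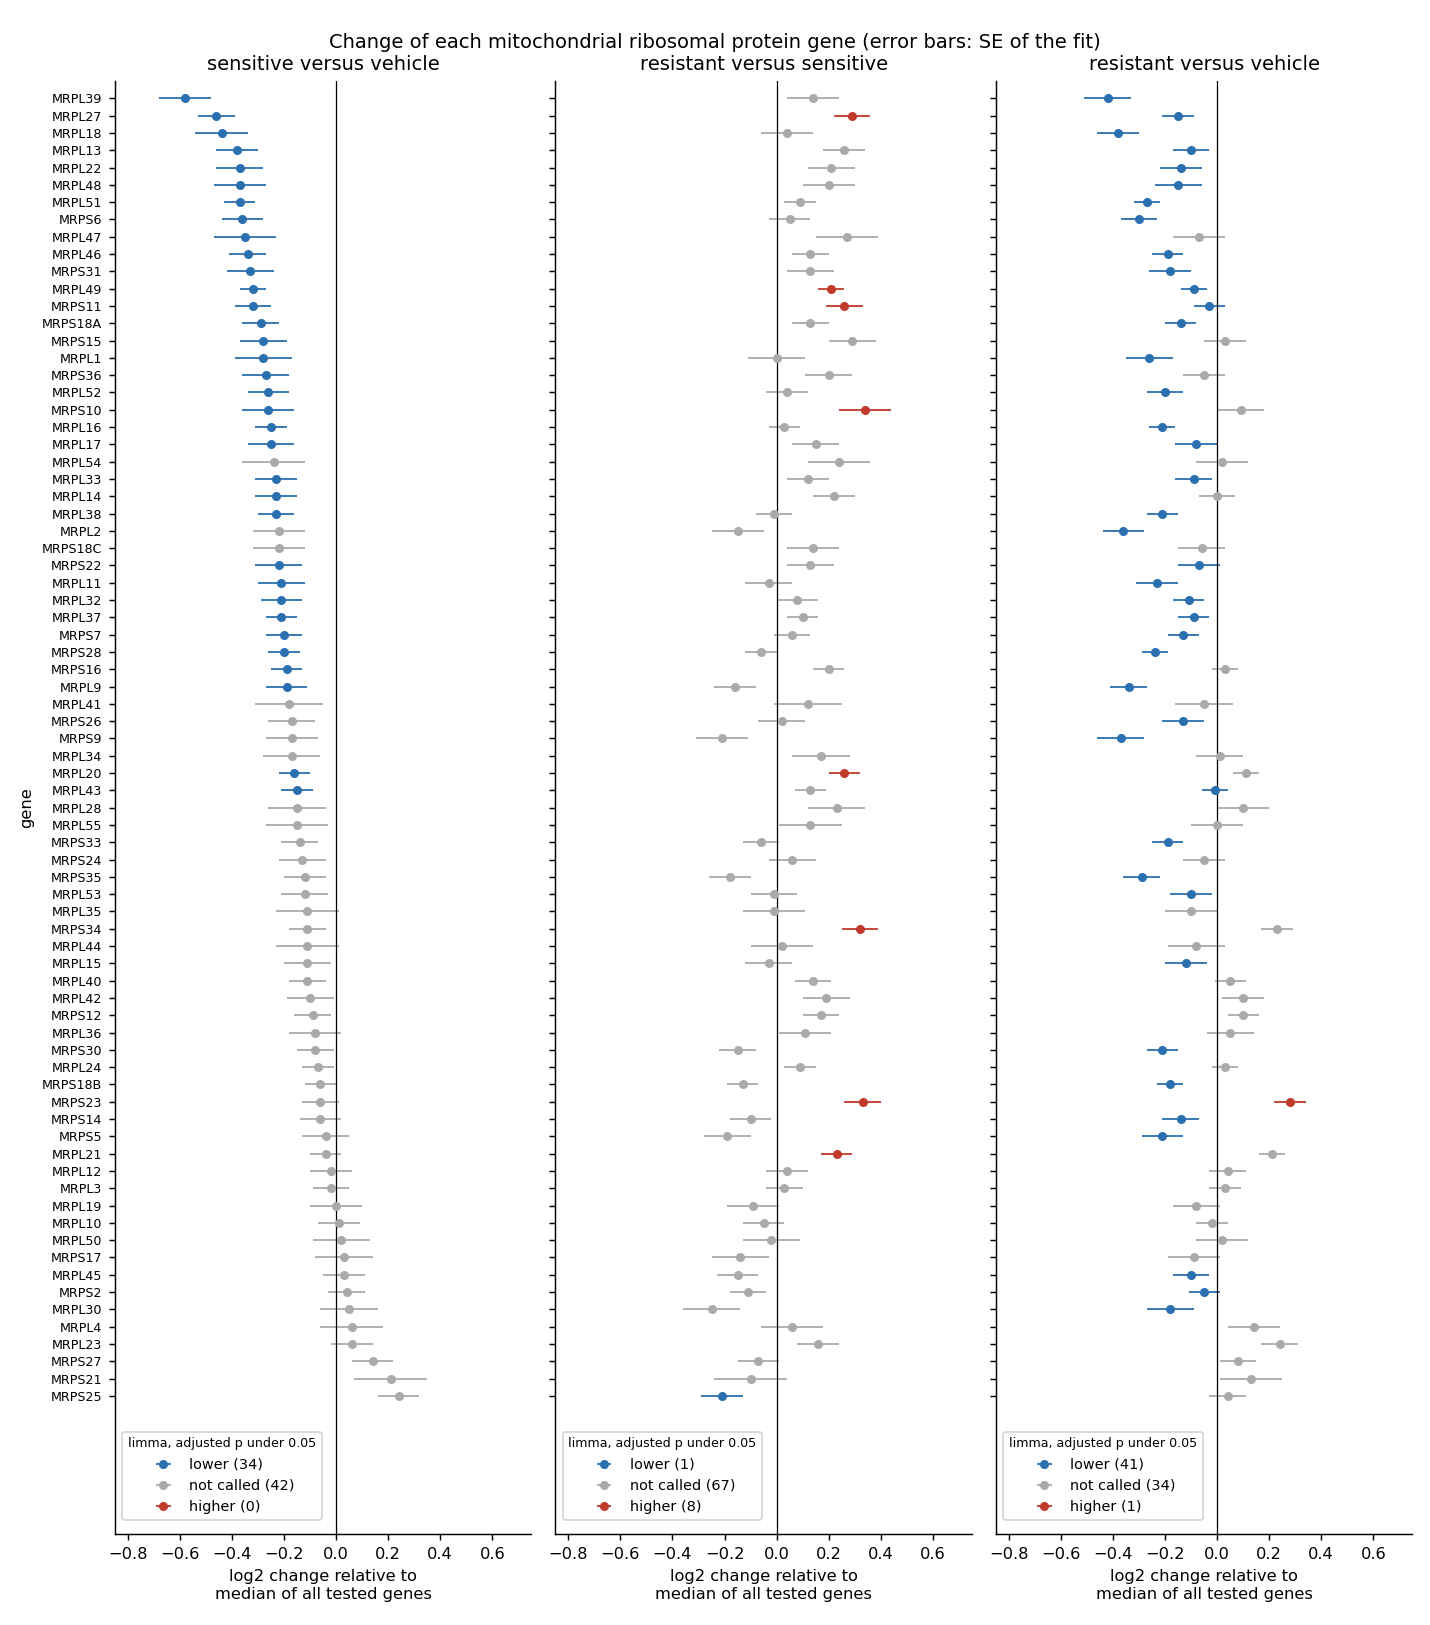
Log2 change of each of the 76 genes relative to the median of all tested genes in the 3 comparisons, ordered by the change in sensitive versus vehicle; bars are the SE of the fit and colors give the call. In sensitive versus vehicle 34 genes are called lower and 0 higher, in resistant versus sensitive 1 and 8, and in resistant versus vehicle 41 and 1.

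Proliferation genes also differed between the groups. All 16 of the list fell at 3 days, with a median change of -2.98. Their summed TPM was 997 to 1311 in vehicle, 141 to 237 in sensitive and 271 to 624 in resistant tumors. In resistant against sensitive tumors 15 of the 16 were higher (93.8%), with a median change of 1.3. Of the 76 mitochondrial ribosomal protein genes 10.5% were higher there, with a median of 0.08, beside 9.56% of all genes. AURKA, a mitotic kinase, fell from 81.3 ± 6.24 TPM (SD, n = 5) to 11.6 ± 0.895 (SD, n = 3). CCNB1, PLK1 and BUB1 also fell, to 10.3 ± 0.404, 2.49 ± 0.875 and 1.37 ± 0.362 TPM. The 76 cytosolic ribosomal protein genes, which take a large share of all TPM, were at a summed 239832 ± 25200 TPM in vehicle, 287206 ± 12000 in sensitive and 238019 ± 5350 in resistant tumors. The part of either in the results on the mitochondrial ribosomal protein genes was not tested.

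Resistant and sensitive tumors differed in few of these genes. In resistant tumors 8 of the 76 were higher (10.5%) and 1 was lower, where 9.56% of all tested genes were higher and 11.6% lower, so the share of higher genes was near the background. The median change was 0.08, relative to an all-gene median of -0.05. After median-of-ratios scaling 10 were higher and 0 lower, beside 12.2% and 9.46% of all genes. For 13 genes every resistant mouse lay above every sensitive mouse, where 12.3% of all tested genes did so. Leaving out 1 mouse moved the count of 8 to 5 (without 1-4), 4 (6-4 or 9-6), 3 (6-6, 9-3 or 9-8) and 1 (6-5), which was MRPS23 alone. The count of 1 lower gene became 5 without 1-5, 3 without 6-6 or 9-3, 2 without 1-9, and 0 without 6-4, 6-5, 9-6 or 9-7.

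MRPS23, a mitochondria-specific small-subunit protein on chromosome 17 (57834781 to 57850056, minus strand), had 89.8, 90.4 and 89.9 TPM in sensitive and 109, 107, 112, 115 and 105 TPM in resistant tumors. All resistant mice lay above all sensitive ones, with a change of 0.33 (SE 0.07, limma adjusted p = 0.00956). Vehicle mice, at 102, 96.0, 93.6, 111 and 93.5 TPM, lay above the sensitive and overlapped the resistant mice. The difference between resistant and vehicle tumors was 0.28, or 0.15 in the unshifted fit that was tested (SE 0.06, limma adjusted p = 0.0464). Its limma adjusted p ran from 0.00548 to 0.171 over the alternatives.

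MRPS34, on chromosome 16 (1771890 to 1773155, minus strand), had 416, 386 and 396 TPM in sensitive and 474, 486, 509, 461 and 490 TPM in resistant tumors. The groups did not overlap, and the change was 0.32 (SE 0.07, limma adjusted p = 0.0130). Vehicle mice spread across both, at 494, 439, 477, 468 and 404 TPM. MRPL21 had 223 ± 5.97 TPM in sensitive (SD, n = 3) and 255 ± 12 in resistant tumors (SD, n = 5) and was higher in the latter (limma adjusted p = 0.0304).

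The other 5 higher genes, MRPL20, MRPL27, MRPL49, MRPS10 and MRPS11, were lower in sensitive than in vehicle tumors, and both comparisons use the same sensitive mice. MRPS10 had 24.7, 22.9, 22.0, 21.9 and 24.7 TPM in vehicle, 19.6, 17.2 and 17.7 TPM in sensitive, and 23.1, 23.3, 18.1, 24.7 and 23.7 TPM in resistant tumors. Mouse 9-7 alone among the resistant mice lay in the sensitive range. Its change was -0.26 (SE 0.10, limma adjusted p = 0.0323, and 0.115 after median-of-ratios scaling) at 3 days and 0.34 (SE 0.10, limma adjusted p = 0.0479) from sensitive to resistant. MRPL20 had 187 ± 7.08, 159 ± 12.1 and 184 ± 6.45 TPM in vehicle, sensitive and resistant tumors. MRPL49 had 60.6 ± 0.726 and MRPS11 43.9 ± 3.56 TPM in resistant tumors (SD, n = 5).

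MRPS25, a mitochondria-specific small-subunit protein on chromosome 3 (15042460 to 15065335, minus strand), went the other way. It had 18.8, 22.2, 18.9, 17.7 and 19.2 TPM in vehicle, 22.6, 21.6 and 20.7 TPM in sensitive, and 17.8, 17.5, 17.1, 17.6 and 19.6 TPM in resistant tumors. Sensitive mice lay above all resistant mice, a change of -0.21 (SE 0.08, limma adjusted p = 0.0368) that was lost after median-of-ratios scaling (limma adjusted p = 0.0602). Against vehicle the sensitive mice were at 0.24, or 0.16 in the unshifted fit that was tested (SE 0.08). That missed the threshold as deposited (limma adjusted p = 0.190), while the change after scaling passed it (limma adjusted p = 0.0389).

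**Figure D4:**
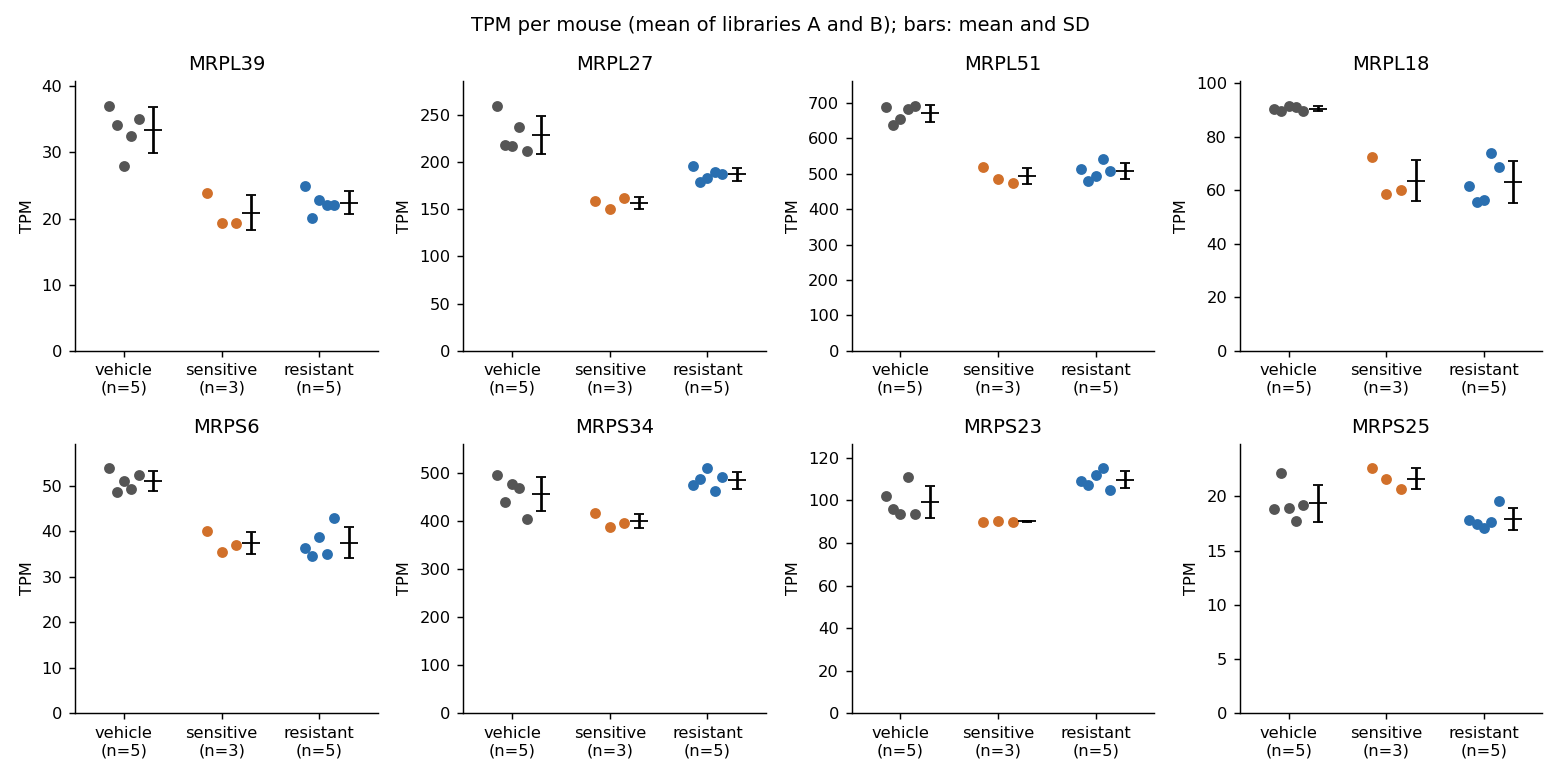
TPM per mouse, as the mean of libraries A and B, of 8 genes in vehicle, sensitive and resistant tumors, with the mean and SD as bars. MRPL39, MRPL27, MRPL51, MRPL18 and MRPS6 stand higher in all vehicle than in all treated mice, MRPS34 and MRPS23 stand lower in sensitive than in resistant mice, and MRPS25 stands higher in sensitive than in resistant mice.

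Between resistant and vehicle tumors, 41 of the 76 genes were lower (53.9%) and 1, MRPS23, was higher, where 32.5% of all tested genes were lower and 11.5% higher. The median change was -0.08, relative to an all-gene median of -0.14, and a few called genes lay close to that median, such as MRPS11 at -0.03 and MRPL43 at -0.01. After median-of-ratios scaling 16 genes were lower (21.1%) and 4 higher (MRPL21, MRPL23, MRPS23 and MRPS34), where 17.3% of all genes were lower and 18.1% higher, so the share of lower genes came near the background. All vehicle mice lay above all resistant mice for 31 genes, a pattern held by 20.6% of all tested genes. The count of higher genes was 2 without mouse 1-6, stayed at 1 without mouse 9-9, and was 0 without any other mouse.

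The smallest adjusted p was that of MRPL51, with 508 ± 23.1 TPM in resistant tumors (SD, n = 5) and a change from vehicle of -0.27 (SE 0.05, limma adjusted p = 4.74e-05). MRPL9, of a bacterial family, had 198, 197, 161, 188 and 195 TPM in vehicle and 136, 129, 145, 135 and 129 TPM in resistant tumors. All resistant mice lay below all vehicle mice, including mouse 1-5, the lowest of the latter, and the change was -0.34 (SE 0.07, limma adjusted p = 0.000110). MRPS35 fell from 160 ± 10.4 to 119 ± 7.94 TPM, a change of -0.29 (SE 0.07, limma adjusted p = 0.000257), with sensitive tumors between them at 139 ± 11.6 TPM. MRPS28 fell from 52.4 ± 1.63 to 40.1 ± 1.58 TPM, a change of -0.24 (SE 0.05, limma adjusted p = 9.60e-05). MRPL39, MRPL18, MRPS6 and MRPL16 were lower as well, with changes of -0.42, -0.38, -0.30 and -0.21, each called in every alternative.

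The 2 comparisons with vehicle share the 5 vehicle mice. In both, 27 genes were lower, which is 79.4% of the 34 lower in sensitive and 65.9% of the 41 lower in resistant tumors. A further 7 (MRPL14, MRPL20, MRPL47, MRPS10, MRPS15, MRPS16 and MRPS36) were called lower in sensitive tumors alone and 14 in resistant tumors alone, among them MRPL2, MRPL30, MRPS9 and MRPS35. In no comparison were 24 genes called, MRPL12, MRPL24, MRPL41 and MRPS24 included. The matching overlap and count over all tested genes were not computed, so neither is read as particular to the members. Both tested immune markers, LYZ and CD68, were higher in resistant tumors: the summed TPM of the 4 was 1.86 to 4.45 in vehicle, 2.76 to 6.08 in sensitive and 5.62 to 14.8 in resistant mice, with PTPRC and CD3E near or at 0. Fibroblast markers summed to 7.71 to 13.1, 5.75 to 8.26 and 4.44 to 10.1 TPM, of which DCN was at 0 in all vehicle and sensitive mice. Endothelial markers summed to 0.190 to 0.315, 0.190 to 0.375 and 0.270 to 0.645 TPM, and adipocyte markers to 0.445 to 1.17, 1.02 to 1.70 and 0.325 to 0.465 TPM. Luminal epithelial markers summed to 7974 to 12245, 7389 to 9513 and 10254 to 13757 TPM. Of these 8 genes, 3 were higher and 0 lower in resistant against sensitive tumors (37.5% higher, beside 9.56% of all genes). Against vehicle 1 was higher and 3 were lower (37.5%, beside 32.5%). All of these markers are human genes, so they cannot be read as a measure of the mouse host cells of the tumors. Whether some reads of host origin were assigned to them is unknown, since the separation of the species is not described. The part of these markers in the results was not tested.

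Mitoribosome subunits with other symbols were 7 genes. At 3 days 3 fell (42.9%, beside 12.6% of all genes) and 0 rose, with a median change of -0.12, and in resistant against vehicle tumors 3 were lower, where 32.5% of all genes were. Both counts were 0 after median-of-ratios scaling, and the first was 1 without mouse 6-5. CHCHD1, a small-subunit protein, fell from 79.6 ± 3.81 to 64.9 ± 1.22 TPM (limma adjusted p = 0.00707). ICT1, a large-subunit protein able to release stalled peptides, fell from 150 ± 6.08 to 121 ± 6.83 TPM (limma adjusted p = 0.00852). AURKAIP1 fell from 183 ± 23.2 to 149 ± 11.1 TPM and was at 185 ± 6.78 TPM in resistant tumors. PTCD3 was not called at 3 days and was lower in resistant (23.2 ± 3.29 TPM) than in vehicle tumors (29.7 ± 1.95 TPM). After median-of-ratios scaling none of these 4 differences from vehicle passed the threshold (limma adjusted p from 0.0687 to 0.172).

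Assembly factors help to fold, modify and join the parts of the mitoribosome. Of 24 such genes 2 fell at 3 days (8.33%, beside 12.6% of all genes) and 0 rose, with a median change of 0.05. Against vehicle 9 were lower (37.5%) and 1 higher in resistant tumors, near the 32.5% of all genes that were lower, and after median-of-ratios scaling 0 of the 24 were lower. Among the 9 were the GTPase NOA1, at 66.4 ± 7.34 and 52.7 ± 3.64 TPM, and ERAL1, which binds the small-subunit rRNA, at 98.0 ± 4.25 and 83.1 ± 3.84 TPM. FTSJ2, an rRNA methyltransferase, fell at 3 days from 84.9 ± 4.29 to 68.1 ± 1.48 TPM (limma adjusted p = 0.00739). WBSCR16 had 52.1 ± 3.27 TPM in vehicle and was lower in resistant tumors, at 42.0 ± 3.72 TPM. After median-of-ratios scaling none of these 4 differences from vehicle passed the threshold (limma adjusted p from 0.0723 to 0.216).

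Of 14 translation factors 3 fell at 3 days (21.4%, beside 12.6% of all genes), with a median of -0.08, and 7 were lower in resistant than in vehicle tumors (50%, beside 32.5%). After median-of-ratios scaling these counts were 0 and 1, and the first was 1 without mouse 6-5 or 1-9 and 0 without 6-6. The elongation factor TSFM fell from 98.8 ± 2.84 to 82.4 ± 6.39 TPM, and TACO1, an activator of COX1 translation, from 50.6 ± 2.04 to 40.6 ± 2.45 TPM. The initiation factor MTIF2 was not called at 3 days and was lower in resistant (33.5 ± 2.47 TPM) than in vehicle tumors (40.0 ± 3.07 TPM). Scaling by median of ratios ended the calls of these 3 (limma adjusted p from 0.0616 to 0.231). Of 20 genes of mitochondrial transcription and RNA handling 2 fell at 3 days (10.0%, beside 12.6% of all genes). In resistant tumors 8 (40.0%) were lower than in sensitive ones, beside 11.6% of all genes, and 10 (50%) lower than in vehicle tumors, beside 32.5%. After median-of-ratios scaling the 8 became 6 (30%, beside 9.46%) and the 10 became 4 (20.0%), near the 17.3% of all genes. Leaving out mouse 9-8 or 9-9 gave 5 in place of the 8, leaving out 6-5, 9-3, 9-6 or 9-7 gave 3, and leaving out 6-4 gave 2. TFAM, which packages mitochondrial DNA, had 20.0 ± 2.29, 17.5 ± 0.933 and 14.2 ± 0.885 TPM in vehicle, sensitive and resistant tumors. SUPV3L1, an RNA helicase, had 27.8 ± 1.14, 26.7 ± 2.05 and 21.7 ± 1.55 TPM, and both genes were lower in resistant tumors than in either other group, except that TFAM against sensitive tumors missed the threshold after median-of-ratios scaling (limma adjusted p = 0.111). POLG and MTERF were lower in resistant than in vehicle tumors.

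The products of mitoribosome translation join nuclear-encoded subunits, and of 76 nuclear oxidative phosphorylation genes 25 fell at 3 days (32.9%, beside 12.6% of all genes) and 0 rose, with a median of -0.10. After median-of-ratios scaling 7 fell (9.21%), near the 7.55% of all genes. Without mouse 6-5 or 6-6 also 7 fell, where 5.71% and 6.87% of all genes did. COX8A, a subunit of cytochrome c oxidase, fell from 604 ± 28.7 to 457 ± 16.4 TPM (limma adjusted p = 0.000277), and the complex I subunits NDUFA12 and NDUFA9 from 163 ± 6.32 to 129 ± 12.9 and from 130 ± 6.47 to 109 ± 6.54 TPM, of which NDUFA9 missed the threshold after that scaling (limma adjusted p = 0.151). The cytosolic ribosomal protein genes had calls in the other direction: 31 of 76 rose at 3 days (40.8%, beside 3.16% of all genes) and 0 fell, with a median of 0.33. That count was 37 after median-of-ratios scaling, 10 after quantile normalization (median 0.04), 17 without mouse 1-9, 4 without 6-6 and 3 without 6-5. The last 2 counts are 5.26% and 3.95%, beside 0.784% and 0.705% of all genes. Against sensitive tumors 44 were lower in resistant ones (57.9%, beside 11.6% of all genes), but after median-of-ratios scaling 6 were (7.89%, beside 9.46%), and after quantile normalization 25. Leaving out 1 mouse gave 7 (6-5), 14 (6-6), 24 to 29 (6-4, 9-3, 9-6 or 9-7) and up to 64. RPL13 had 477 ± 30.8, 606 ± 42.2 and 434 ± 14.3 TPM in vehicle, sensitive and resistant tumors.

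**Figure D5:**
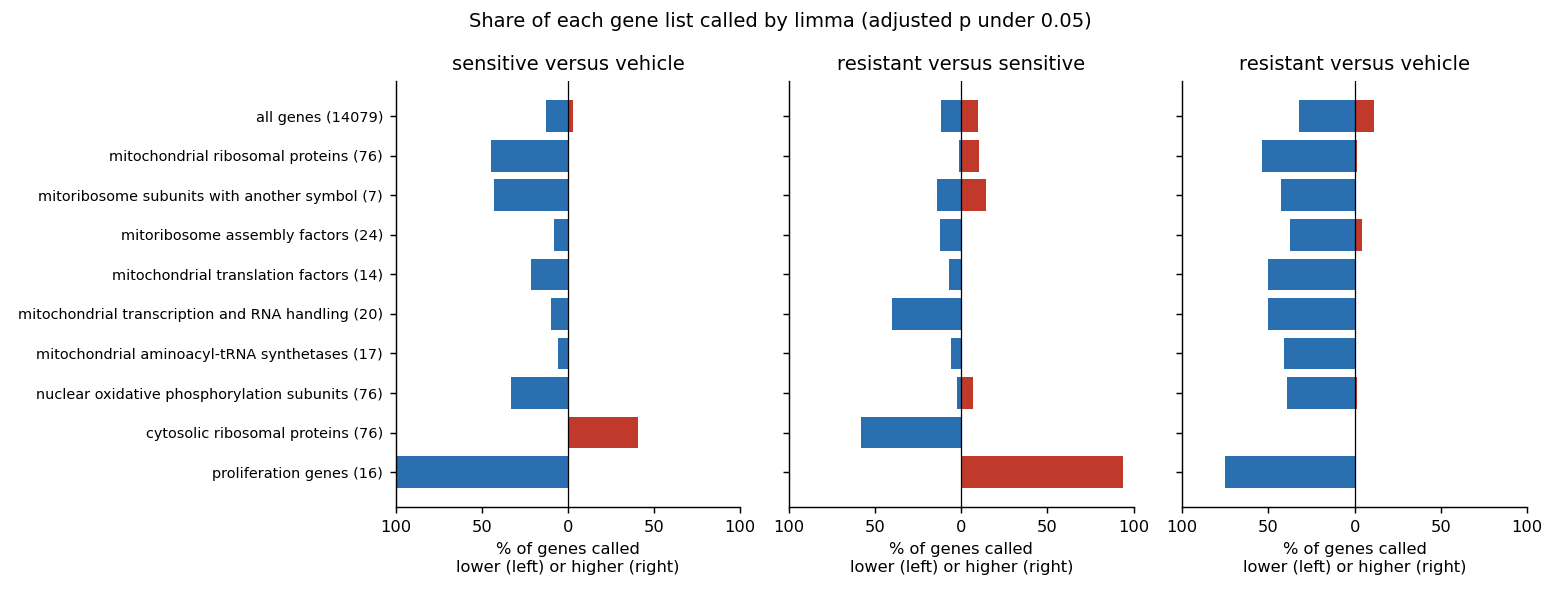
Share of each gene list called lower (left, blue) or higher (right, red) in the 3 comparisons by limma at adjusted p under 0.05, with the number of tested genes in parentheses. At 3 days 44.7% of the mitochondrial ribosomal protein genes and 12.6% of all genes were lower, while the cytosolic ribosomal protein genes have calls in the higher direction.

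Of 8 tested regulators of nuclear genes for mitochondria, 1 rose and 1 fell at 3 days, and neither did without mouse 6-5 or 6-6. GABPB1, a subunit of an ETS-family factor, fell from 22.8 ± 2.02 to 16.8 ± 0.394 TPM (limma adjusted p = 0.0146, 0.0596 after median-of-ratios scaling) and was at 15.4 ± 1.73 TPM in resistant tumors. MYC rose from 162 ± 27.1 to 238 ± 30.7 TPM (limma adjusted p = 0.0142, up to 0.0910 over the alternatives). NRF1 had 9.10 ± 0.770, 7.31 ± 0.450 and 7.21 ± 0.811 TPM and YY1 71.8 ± 8.05, 69.8 ± 5.30 and 56.8 ± 5.57 TPM in vehicle, sensitive and resistant tumors, both called lower in resistant against vehicle tumors alone and not after median-of-ratios scaling (limma adjusted p = 0.118 and 0.0731).

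The genes are spread over 21 chromosomes, and many share a start region with a gene on the other strand. A protein-coding partner that starts within 1000 bases, head to head, was annotated for 28 of the 76 (36.8%), against 17.8% of 11898 tested protein-coding genes. MRPL46 and MRPS11 are such a pair, with starts 34 bases apart on chromosome 15, and both fell at 3 days. Of the 26 tested partners 8 fell at 3 days and 1 rose, but MRPL46 and MRPS11 are 2 of these 8. Of the 24 partners that are no members 6 fell and 1 rose, with a median change of -0.02, beside 12.6% and 3.16% of all genes. EME1, a DNA repair nuclease subunit that starts 6 bases from MRPL27, had a change of -1.02 at 3 days (limma adjusted p = 0.000796) and of 1.27 from sensitive to resistant tumors (limma adjusted p = 0.000659).

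Exons of 41 members overlap another annotated gene, and the sources name no strand setting for the counting, so that reads of such pairs cannot be told apart. Of 32 such neighbours with a test 6 fell at 3 days and 1 rose, with a median change of 0.03, beside 12.6% and 3.16% of all genes. MRPL51 overlaps NCAPD2, a condensin subunit at 110 TPM in vehicle tumors, which fell by 1.77 on the log2 scale at 3 days (limma adjusted p = 2.17e-07). MRPL47 overlaps ACTL6A (-0.39), MRPS16 overlaps DNAJC9 (-0.80) and MRPS14 overlaps CACYBP (-0.41), all 3 of which fell at 3 days, as MRPL47 and MRPS16 did and MRPS14 did not. The other 2 that fell were PSMA2 (-0.28), which overlaps MRPL32, and MTBP (-0.37), which overlaps MRPL13, and the 1 that rose was SEMA4G (0.47, limma adjusted p = 0.0353), which overlaps MRPL43. EME2, head to head with MRPS34 at 52 bases, rose by 0.83 on the log2 scale at 3 days (limma adjusted p = 0.00333), when MRPS34 was not called.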

How the data were processed

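Human gene expression was deposited by the authors as TPM for 26 libraries of 13 mice (2 per mouse, 5 vehicle, 3 sensitive and 5 resistant mice). Per the submitters' processing notes, FastQC, STAR, HTSeq and RSEM and the builds GRCh38 and GRCm38 were used. Versions, roles, strand setting and how mouse reads were set aside are not given in the sources used here. Each library sums to between 999847 and 999887 TPM, with 16914 to 17662 genes above 0, and its read depth is unknown. The entry without a gene name was left out.

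The 2 libraries of a mouse were averaged as log2(TPM + 1). Genes with a mean of at least 1 TPM in at least 3 mice (14079) were fitted with limma 3.58.1 in R 4.3.3 (trend, all 13 mice in 1 model, two-sided, Benjamini-Hochberg over all genes tested, threshold 0.05). Fold changes are on that log2 scale and understate changes of low genes. On simulated data with the sensitive versus vehicle design and 14079 genes, 12% of genes lowered by 0.3 log2 were recovered, 44% of those lowered by 0.5 and 86% of those lowered by 1. Only 50 genes were changed at each size, while 1767 were called lower in the data, and the adjusted threshold loosens as more genes change. The simulation also added the library spread to a spread between mice that already held it. These shares therefore do not give the recovery for the members. Alternatives were 2 scalings, another pseudocount (0.1), 2 filters, each library letter alone, a replicate block, the compared groups alone, a robust prior and leaving out each mouse.

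The members, gene lists and motifs were chosen with earlier results of these data known. Named were, per comparison, up to 8 called members per direction by adjusted p, the 6 highest and 6 lowest in vehicle tumors, the MRPS18 paralogs, members called in opposite directions, and up to 4 genes per list by smallest adjusted p. A gene that this rule names is not reported here. Other genes named in passing (overlapping or head-to-head neighbours, members listed by shared call, MRPL43 and MRPS36) were chosen after their values were seen. Gene positions are those of GENCODE 29 (GRCh38), and promoter windows those of RefSeq (GRCh38.p14).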

Additional observations from a re-analysis of the deposited data

Results flagged for a closer look

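Of 66 checks for a mouse standing apart within a group of 5 (gap to the nearest mouse over the whole range above 0.71, which chance passes in about 1 in 20 groups), 5 passed. In vehicle mouse 1-5, MRPL41 was at 480 TPM (323 to 357 in the others) and MRPL9 at 161 TPM (188 to 198 in the others). In resistant mouse 9-7, MRPS10 was at 18.1 TPM (23.1 to 24.7 in the others). In resistant mouse 9-9, MRPS25 was at 19.6 TPM (17.1 to 17.8 in the others). In resistant mouse 9-8, large-subunit genes made up 69.4% of the summed TPM of the members (68.0 to 68.3% in the others).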

How the results depend on the processing

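In sensitive versus vehicle, the 34 lower genes became 15 with median-of-ratios scaling, 13 with quantile normalization and 19 with library A alone, and the count of higher genes became 1 with either scaling. Leaving out 1 mouse gave 13 to 38 lower genes, and the 13, without mouse 6-5, stood beside 5.71% of all genes. In resistant versus sensitive, the 8 higher genes became 2 with library A alone and 5 with library B alone, and 1 to 9 without 1 mouse. The 1 lower gene there became 0 with median-of-ratios scaling, library A or library B alone, 2 with quantile normalization, no filter or the 2 groups alone, 3 with a filter of 5 TPM, and 0 to 5 without 1 mouse. In resistant versus vehicle, the 41 lower genes became 16 with median-of-ratios scaling and 20 with quantile normalization. The 1 higher gene became 4 and 3 with those scalings, 0 with library A alone or the 2 groups alone, and 0 to 2 without 1 mouse. With no filter the median change of the members was -0.23 in sensitive versus vehicle and -0.19 in resistant versus vehicle, since the all-gene median then includes many genes near 0. MRPL43 in resistant versus vehicle changed direction with median-of-ratios scaling, to 0.00 (adjusted p = 0.971). The cause was not tested for the other changes.

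The letters A and B name libraries of 1 mouse and no shared batch, and their differences did not move together between groups (correlation over 14079 genes from -0.0507 to -0.004). With the letter as replicate block and the mouse as a correlated block (consensus correlation 0.636), 31 members were lower in sensitive versus vehicle, 6 higher and 4 lower in resistant versus sensitive, and 0 higher and 42 lower in resistant versus vehicle. Of the called members, 22 of 34 in sensitive versus vehicle and 8 of 9 in resistant versus sensitive lost their call on leaving out some mouse. Read depth is unknown, so no counting error could be given.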

Other observations

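Of the 17 mitochondrial aminoacyl-tRNA synthetase genes, whose enzymes charge the tRNAs that the mitoribosome uses, 7 were lower in resistant than in vehicle tumors (41.2%, beside 32.5% of all genes), and 3 were after median-of-ratios scaling (17.6%, near the 17.3% of all genes). TARS2 was at 73.6 ± 5.04 TPM in vehicle and 52.6 ± 5.44 in resistant tumors (SD, n = 5 each), AARS2 at 8.95 ± 1.05 and 6.39 ± 1.08, and LARS2 at 16.1 ± 2.42 and 12.2 ± 1.16. LARS2 missed the threshold after median-of-ratios scaling (limma adjusted p = 0.139).

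C12orf65, a factor that frees peptides from stalled mitoribosomes, had 10.8 to 14.5 TPM in vehicle, 8.64 to 9.45 in sensitive and 5.36 to 7.97 in resistant mice, so the 3 groups did not overlap. Its change from vehicle to resistant tumors was -0.71 (SE 0.12, limma adjusted p = 9.17e-05). COX6C, a subunit of cytochrome c oxidase, was higher in resistant than in vehicle tumors, at 650 ± 45.3 against 366 ± 67.4 TPM (SD, n = 5 each), a change of 0.98 (SE 0.11, limma adjusted p = 8.11e-05). Of the 76 oxidative phosphorylation genes, 1 was called higher in that comparison as deposited, 6 after median-of-ratios scaling and 3 after quantile normalization.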
